A study of Mus musculus with 11 samples.

Results

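Mouse CD4 T cells that carried wild-type (WT) FoxP3 on a retrovirus were compared with cells that carried the empty retrovirus, to see which transcripts FoxP3 alone moves in activated CD4 T cells. The arrays were chosen by their titles, 3 of WT FoxP3-transduced T cells and 3 of mock-transduced T cells, 6 of the 11 arrays of the study. The others held cells with A384T FoxP3 (3 arrays) or R397W FoxP3 (2 arrays), point mutants of the same protein. Every group started from CD4(+) CD25(-) CD45RB(high) cells sorted from BALB/cA mice (lymph nodes and spleen). The cells were stimulated with anti-CD3e at 0.5 µg/ml, IL-2 at 10 ng/ml and spleen cells of the same strain that had been freed of T cells and irradiated with 20 Gy. Virus was added by spin-infection 24 h later, the cultures were kept in IL-2, and cells with high GFP, which reports the vector, were sorted on day 7. Mock cells received MIGR1, and WT cells received MIGR1 with mouse WT FoxP3. The age of the mice is not given, and FoxP3 was driven by the retroviral vector rather than by its own locus.

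FoxP3 is a forkhead transcription factor that regulatory T (Treg) cells need for their identity, and Treg cells restrain the responses of other T cells. They carry high-affinity IL-2 receptors, inhibitory receptors such as CTLA-4 and the adenosine-producing enzyme CD73, and they make little IL-2 themselves. IL-2 signals through STAT5, which switches on its own feedback inhibitors of the CIS and SOCS family.

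Each value below is a log2 value minus the probe set's median over the 3 mock arrays, so that 0 is the mock median and 1 is a 2-fold difference if the base is 2, as was assumed. Changes could be read from these values, whereas levels, comparisons between genes and any check of cell identity by level could not. A difference is the WT mean minus the mock mean ± its standard error (SE, n = 3 arrays per group), and a gene was called when its adjusted p was under 0.05 (limma, Benjamini-Hochberg over 45037 probe sets). A gene was described by its most variable probe set over the 11 arrays. Whether the arrays of 1 group stand for different cultures or mice is not said in the labels, and the p-values therefore rest on a spread between arrays that may be technical. A second fit held the array number of the titles (1, 2 or 3) as a block, and its adjusted p is given, as the value with the block, where it changes a call. In a sorted population, a change in the share of cells that express a gene and a change in RNA per cell cannot be told apart.

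The arrays were set beside each other without further scaling. Array medians lay between -0.016 and 0.0022, but medians near 0 follow largely from the normalization and the centring. They therefore do not show that the arrays are comparable. Standard deviations over probe sets ran from 0.18 on mock array 3 to 0.47 on A384T array 1, and array 1 had the largest in every group. Lower values in mock are partly built in by the centring on the mock median. Those of the other groups also hold their differences from mock. The T cell receptor chains and coreceptor differed little between the groups, with Cd3e at -0.29 ± 0.17, Cd3d at -0.02 ± 0.15, Cd3g at -0.05 ± 0.22 and Cd4 at -0.14 ± 0.23, none of them called. The Foxp3 probe set read 0, -0.34 and 0.26 on mock arrays 1 to 3 and -0.07, 0.00 and 0.11 on WT arrays 1 to 3, a difference of 0.04 ± 0.15. No source used here says whether its probes lie inside the transduced sequence, so this probe set does not check the labels.

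Promoters of some genes of the signalling and interferon results below were searched for the sites of factors known to act on such genes, and 4 that hold matches are printed to show what a match looks like. The sequences are RefSeq windows of build GRCm38.p6, mostly upstream of the gene start and reaching a little past it, shown 5′ to 3′ on the gene's strand. Capitals mark matches to TTCNNNGAA, the site form of STAT factors, in Cish and Lta, and to GAAA, any 2 bases and GAAA again on either strand, a form of the interferon-stimulated response element (ISRE), in Ifit1 and Gbp3. The windows are chr9:107296409-107296708 (plus strand) for Cish, chr17:35205302-35205601 (minus strand) for Lta, chr19:34640639-34640938 (plus strand) for Ifit1 and chr3:142559794-142560093 (plus strand) for Gbp3.
Cish: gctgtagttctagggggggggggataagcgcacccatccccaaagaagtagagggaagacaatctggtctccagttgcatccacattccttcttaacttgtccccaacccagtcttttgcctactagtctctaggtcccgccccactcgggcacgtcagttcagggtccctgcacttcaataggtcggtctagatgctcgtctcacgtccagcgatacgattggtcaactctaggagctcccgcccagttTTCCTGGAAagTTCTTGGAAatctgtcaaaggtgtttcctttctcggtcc
Lta: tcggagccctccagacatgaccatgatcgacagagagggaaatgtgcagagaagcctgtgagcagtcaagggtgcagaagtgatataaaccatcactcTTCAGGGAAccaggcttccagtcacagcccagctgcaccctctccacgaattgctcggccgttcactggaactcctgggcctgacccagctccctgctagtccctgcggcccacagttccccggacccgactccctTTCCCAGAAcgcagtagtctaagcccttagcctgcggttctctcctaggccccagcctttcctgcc
Ifit1: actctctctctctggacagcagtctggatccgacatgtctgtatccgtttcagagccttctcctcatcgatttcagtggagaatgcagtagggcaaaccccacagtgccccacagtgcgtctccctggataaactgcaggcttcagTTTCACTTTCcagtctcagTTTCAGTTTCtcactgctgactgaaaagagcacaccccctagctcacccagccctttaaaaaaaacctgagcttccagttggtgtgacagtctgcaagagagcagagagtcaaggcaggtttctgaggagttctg
Gbp3: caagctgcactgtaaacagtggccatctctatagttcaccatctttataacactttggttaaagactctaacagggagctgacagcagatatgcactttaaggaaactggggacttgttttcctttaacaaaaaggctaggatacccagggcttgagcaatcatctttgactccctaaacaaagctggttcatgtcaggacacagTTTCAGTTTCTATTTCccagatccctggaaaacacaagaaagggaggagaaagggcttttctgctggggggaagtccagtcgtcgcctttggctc
Cish, a feedback inhibitor of the IL-2 receptor, holds 2 STAT-type matches next to each other near the end of the window, at or just past its start, and Lta holds 2 farther apart. Ifit1 holds 2 separate ISRE matches, and those of Gbp3 are 2 that overlap. Since the printed windows were chosen for their matches, they do not stand for the others searched. No match to the STAT form was found in the window of Il2ra or in either window of Pim1. There was none to the ISRE in the other window of Gbp3 and none to the forkhead form in that of Gpr83. A kappaB form, searched for NF-kappaB, had no match in the window of Bcl3 and 1 in that of Nfkbia. Of 18109 windows of 14452 measured genes (both strands searched), 7.21% held the STAT form and 3.03% the ISRE. Among windows of genes called higher with FoxP3 these shares were 11.2% and 3.84%, and among windows of genes called lower they were 6.58% and 2.82%. GTAAACA, a forkhead site form, stood in 2.98% of all windows, 3.84% of those of genes called higher and 2.82% of those of genes called lower. The kappaB form stood in 1.58% of all windows, 3.56% of those of genes called higher and 1.57% of those of genes called lower. In the NF-kappaB list described below it stood in 7 of 20 windows (35.0%). An AP-1 form stood in 6.38% of all windows, and in 6.58% of those of genes called higher and of genes called lower. For a CRE form these shares were 2.49%, 1.92% and 0.940%. A match is a description of the letters and does not show binding.

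With WT FoxP3, 353 genes were higher and 290 lower of 18193, so that 3.53% of genes were called, 1.94% higher and 1.59% lower. At the level of probe sets, 671 were higher (1.49%) and 527 lower (1.17%), 2.66% of 45037 in all. With the block 955 genes were called higher (5.25%) and 869 lower (4.78%), 10.0% of all, and these held all 643, while 3438 probe sets were called (7.63%), 3.98% higher and 3.65% lower. Large changes were mostly rises, with 80 called genes at least 4-fold higher and 31 at least 4-fold lower, and 7 called genes at least 16-fold higher and 0 lower. The median difference was 1.22 for called rises and -1.05 for called falls, against a median size of 0.13 over all genes. In all 643 the 3 WT arrays lay on one side of the 3 mock arrays, as they did in 16.7% of all genes. Precision rested on few arrays, and 313 of the 643 (179 higher, 134 lower) were called in each of the 6 fits that left out 1 array. Counts fell to 436 without mock 1, 407 without mock 2, 429 without mock 3, 393 without WT 1 and 380 without WT 2. Other settings called 279 genes after quantile normalization of the arrays, 261 with a trend and robust prior for the variances and 485 with only the WT and mock arrays fitted. Where one of these, the mean of a gene's probe sets or arrays centred on their own median ended a call named below, the genes are given with their adjusted p. Quantile normalization and the trend both worked on values already centred on the mock median. Quantile normalization gives arrays of unequal spread 1 distribution, and the trend followed mean change rather than signal level. Calls lost under these 2 settings may therefore be partly built in, which was not tested.

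Gpr83, a G protein-coupled receptor that marks Treg cells, rose furthest. It read 0, 0.02 and -0.02 on mock arrays 1 to 3 and 6.35, 6.46 and 5.90 on WT arrays 1 to 3, a difference of 6.24 ± 0.22 or 75.5-fold (adjusted p = 2.23e-06). Every WT array was thus far above every mock array, and WT array 3 was the lowest of its group. Cyp4f18, a cytochrome P450 that hydroxylates leukotriene B4, read 0, -0.67 and 0.38 in mock and 5.39, 5.49 and 5.04 in WT cells (5.40 ± 0.28, adjusted p = 1.51e-05). Drc1, a subunit of the dynein regulatory complex of cilia, read -0.32, 0 and 0.30 against 5.16, 4.96 and 4.51 (29.4-fold, adjusted p = 1.19e-05). Their mock arrays scatter around 0 while the WT arrays differ from each other by less than 1. Tgm2, a transglutaminase that crosslinks proteins, was more spread, at 5.07, 4.87 and 3.85 on WT arrays 1 to 3 (4.56 ± 0.39, adjusted p = 0.000209). The growth factor Hbegf (3.86 ± 0.43), the pseudokinase Trib1 (3.84 ± 0.29), the fatty acid elongase Elovl6 (3.78 ± 0.30), the glycine-cleaving enzyme Gldc (3.74 ± 0.39) and the actin regulator Enah (3.67 ± 0.32) were also among the 15 largest rises.

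**Figure D1:**
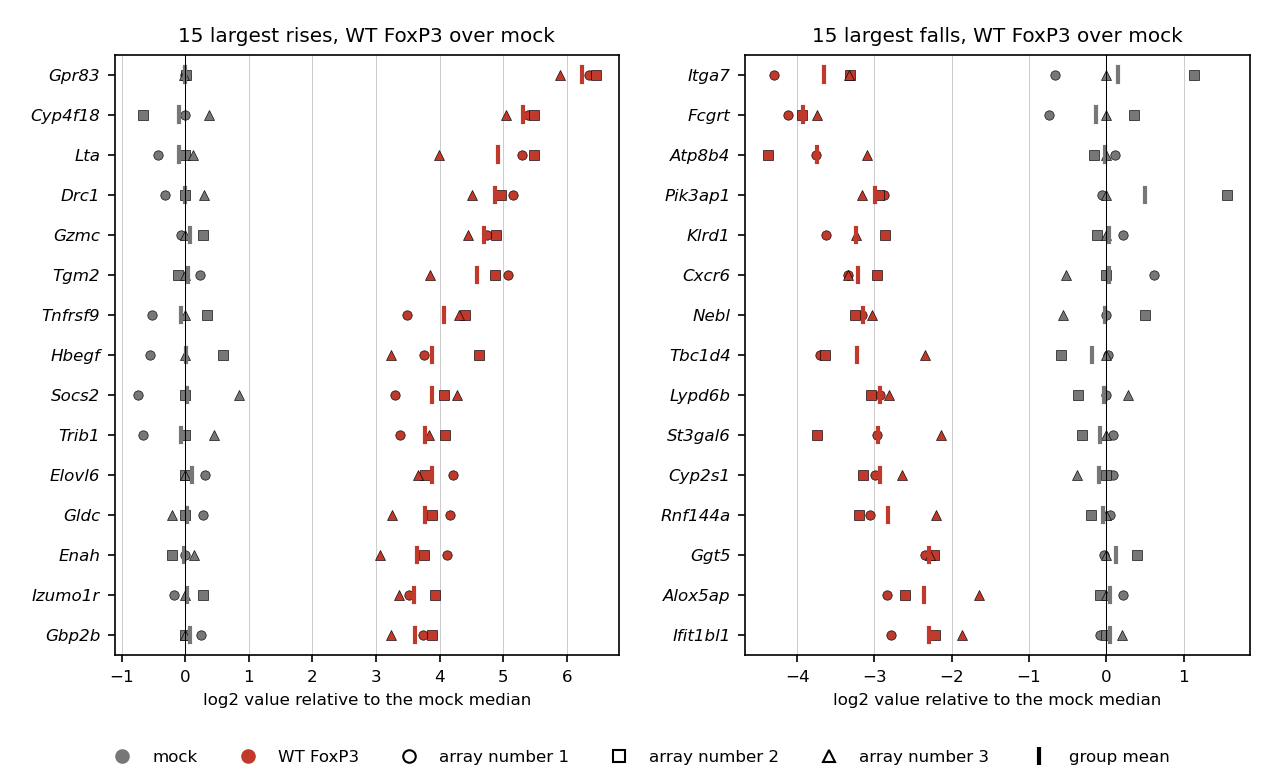
The 15 largest called rises (left) and falls (right) with WT FoxP3. Each point is 1 array, as a log2 value relative to the mock median on a linear axis, grey for mock and red for WT, with the shape giving the array number and a bar the group mean; Gpr83 WT arrays lie between 5.90 and 6.46, and no WT array overlaps a mock array in any of the genes.

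Itga7, an integrin chain that binds laminin, read -0.66, 1.13 and 0 on mock arrays 1 to 3 and -4.30, -3.32 and -3.33 on WT arrays 1 to 3 (-3.80 ± 0.51, 13.9-fold lower, adjusted p = 0.00299). Fcgrt, which encodes the neonatal Fc receptor's alpha chain, read -0.74, 0.35 and 0 against -4.11, -3.93 and -3.74 (-3.80 ± 0.36, adjusted p = 0.000417). Both genes were lowest on array 1 in mock as in WT cells, and the groups stayed far apart. Atp8b4, a P-type ATPase, read 0.11, -0.16 and 0 against -3.76, -4.38 and -3.09 (-3.73 ± 0.35), and Klrd1, the NK receptor chain CD94, read 0.22, -0.12 and 0 against -3.63, -2.87 and -3.24 (-3.28 ± 0.29). In these the mock arrays were tight and the WT arrays carried the spread. Between them in size stood Pik3ap1, an adaptor of PI3 kinase (-3.49 ± 0.48), and next came the chemokine receptor Cxcr6 (-3.25 ± 0.27), Nebl, an actin-binding protein (-3.13 ± 0.24), and Tbc1d4, a Rab regulator (-3.04 ± 0.35). Lypd6b (-2.90 ± 0.17), the cytochrome P450 Cyp2s1 (-2.83 ± 0.18) and the gamma-glutamyl transferase Ggt5 (-2.41 ± 0.18) had WT arrays within 0.6 of each other. Itga7 and Pik3ap1 were not called after quantile normalization (adjusted p = 0.0503 and 0.107).

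Genes that Treg cells express more than other CD4 T cells made up the list with the largest share of members called higher. Of 29 measured, 13 rose and 0 fell, with a median difference of 1.16 against -0.016 for all genes, and 20 rose and 1 fell with the block. The list was chosen with these data partly known, and its count stands beside the 1.94% and 1.59% of all genes. Among receptors, Izumo1r (folate receptor 4) read -0.18, 0.28 and 0 on mock arrays and 3.52, 3.92 and 3.36 on WT arrays (11.8-fold, adjusted p = 1.19e-05). Il2ra, the IL-2 receptor alpha chain, read 0.07, -0.20 and 0 against 2.30, 1.95 and 1.95 (2.11 ± 0.15, adjusted p = 8.01e-05), and Il2rb, the beta chain, read 0, 0.20 and -0.23 against 2.71, 2.53 and 2.24 (2.50 ± 0.20, adjusted p = 0.000156). WT arrays of both chains lay above 1.9 and no mock array passed 0.3. Ctla4, an inhibitory receptor for CD80 and CD86, read 0, 0.53 and -0.15 against 2.13, 1.73 and 1.77 (1.75 ± 0.20, adjusted p = 0.00118). Mock array 2 was its highest control and still lay more than 1 below the lowest WT array. Ctla4 was not called after quantile normalization (adjusted p = 0.0571).

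The remaining Treg genes that rose were enzymes, adhesion molecules and factors. Nt5e, the enzyme CD73 that makes adenosine, read 0.68, -0.52 and 0 against 3.70, 3.38 and 3.51 (11.1-fold, adjusted p = 8.98e-05). Itgae, the integrin chain CD103, read 0.32, -0.10 and 0 against 3.28, 2.51 and 3.45 (8.02-fold, adjusted p = 0.00024). Ikzf2, the Ikaros-family factor Helios, read 0.17, -0.15 and 0 against 1.98, 1.62 and 2.26 (1.95 ± 0.20, adjusted p = 0.000609). Its relative Ikzf4, Eos, was not called (1.83 ± 0.80, adjusted p = 0.417, adjusted p = 0.0042 with the block). It was highest on array 1 in both groups, with 1.08, -0.02 and 0 in mock and 3.72, 1.66 and 1.19 in WT cells. The extracellular matrix gene Ecm1 rose (2.03 ± 0.29, adjusted p = 0.00433). Swap70, an actin regulator, was called (0.89 ± 0.19, adjusted p = 0.0365) but not without mock 2, mock 3, WT 1, WT 2 or WT 3 (highest adjusted p = 0.129). Ecm1 and Swap70 were not called after quantile normalization (adjusted p = 0.106 and 0.15). Swap70 was not called with a trend and robust prior (adjusted p = 0.11).

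Genes that Treg cells express less than other CD4 T cells were divided. Of 18 measured, 5 fell and 2 rose (median -0.32), and 7 fell and 3 rose with the block. Il4, the cytokine of type 2 helper cells, read 0.01, 0 and -0.25 against -1.73, -2.41 and -2.03 (-1.98 ± 0.20, adjusted p = 0.000537). Pde3b, a phosphodiesterase that breaks down cyclic AMP, read 0.03, -0.04 and 0 against -1.86, -1.71 and -1.32 (-1.63 ± 0.17, adjusted p = 0.000843), and the phosphatase Ptpn22 read 0, -0.01 and 0.03 against -1.41, -1.35 and -1.25 (-1.35 ± 0.13, adjusted p = 0.000417). All 3 mock arrays of the last lay within 0.1 of each other. Tnf and Id3, in contrast, rose, at 3.06 ± 0.44 and 2.24 ± 0.22. Il2 (-0.16 ± 0.11), Ifng (-0.21 ± 0.12) and Il7r (-0.47 ± 0.34) were not called, with or without the block, and Satb1, a chromatin organiser, was at -0.72 ± 0.47 (adjusted p = 0.686, adjusted p = 0.0433 with the block). Lower members counted 3 without mock 2, 3 without WT 2 and 3 with a trend and robust prior, and higher members 1 after quantile normalization. Cd40lg (-0.79 ± 0.14) was lost without mock 1, mock 2, WT 1, WT 2 or WT 3 (highest adjusted p = 0.0681), and Igfbp4 (-1.30 ± 0.23) without mock 2, mock 3 or WT 2 (highest adjusted p = 0.0624). Tnf and Cd40lg were not called after quantile normalization (adjusted p = 0.351 and 0.347). Cd40lg and Igfbp4 were not called with a trend and robust prior (adjusted p = 0.12 and 0.0772).

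TNF-family genes moved in both directions among the ligands and upward among the receptors. Lta, lymphotoxin alpha, read -0.43, 0 and 0.12 on mock arrays 1 to 3 and 5.30, 5.49 and 3.99 on WT arrays 1 to 3 (32.7-fold, adjusted p = 0.00086), and Tnf read 0, 1.10 and -0.37 against 3.75, 3.37 and 2.78 (3.06 ± 0.44, adjusted p = 0.00449). WT array 3 was the lowest WT array for both. Fasl, the death ligand, fell, at 0, 0.54 and -0.13 against -1.11, -1.60 and -1.16 (-1.43 ± 0.19, adjusted p = 0.00301). Of 13 ligands measured, 3 rose and 3 fell, and 1 rose and 1 fell after quantile normalization. The other ligands called were Ltb (0.86 ± 0.16), lost without mock 1, mock 2, WT 1 or WT 2 (highest adjusted p = 0.0891), Tnfsf14 (-0.95 ± 0.19), lost without mock 2, mock 3, WT 1, WT 2 or WT 3 (highest adjusted p = 0.126), and Cd40lg, so that the count of falls was 1 without mock 2, WT 1, WT 2 or WT 3. Of 16 receptors, 4 rose and 0 fell, and 2 rose after quantile normalization. Tnfrsf9, the costimulatory receptor 4-1BB, read -0.53, 0.33 and 0 against 3.49, 4.39 and 4.30 (17.5-fold, adjusted p = 9.86e-05). Tnfrsf4 (OX40) read -0.27, 0.61 and 0 against 2.13, 2.49 and 2.27 (2.18 ± 0.22), and Tnfrsf18 (GITR) read 0, 0.23 and -0.24 against 1.50, 1.40 and 1.31 (1.41 ± 0.14), with neither group overlapping the other. Besides Tnf and Cd40lg, as given above, Ltb, Tnfsf14 and Tnfrsf4 were not called after quantile normalization (adjusted p = 0.239, 0.108 and 0.104 for the last 3). Ltb and Tnfsf14 were not called with a trend and robust prior (adjusted p = 0.101 and 0.168). Tnfsf14 was not called with only the WT and mock arrays (adjusted p = 0.0527).

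Other ligands and receptors moved in both directions. Osm, oncostatin M, read -0.23, 0 and 0.02 against 1.54, 2.04 and 1.71 (1.83 ± 0.14, adjusted p = 0.000134). Of 23 cytokines and growth factors, 3 rose and 1 fell, and 5 rose and 1 fell with the block, while 0 of 17 chemokines rose and 1 fell. Of 30 cytokine receptors 2 rose and 2 fell, and 7 rose and 4 fell with the block. Of 21 chemokine receptors 2 rose and 2 fell, and 3 rose and 7 fell with the block. Both chains of the IL-18 receptor, which type 1 helper cells carry, fell, Il18rap with 0.33, 0 and -0.75 against -2.23, -2.27 and -2.16 (-2.08 ± 0.23) and Il18r1 with 0.12, -0.44 and 0 against -1.65, -2.11 and -1.41 (-1.62 ± 0.24). Cxcr6, the receptor for CXCL16, read 0.62, 0 and -0.53 against -3.34, -2.97 and -3.34 (-3.25 ± 0.27, adjusted p = 0.000195), and the atypical chemokine receptor Ccrl2 rose (1.60 ± 0.22). Of 17 type 1 helper genes 5 fell and 0 rose, 6 fell and 1 rose with the block, and 3 fell after quantile normalization. They include Ccl5 (-0.57 ± 0.12), which was lost without mock 1, mock 2, mock 3, WT 1 or WT 3 (highest adjusted p = 0.119). Tbx21, the factor that defines these cells, was at -0.22 ± 0.15 and not called. Among costimulatory and inhibitory molecules 5 of 22 rose and 0 fell, and 3 rose after quantile normalization. Slamf1 read -0.32, 0.39 and 0 against 2.39, 2.29 and 1.97 (2.20 ± 0.29), and the PD-1 ligand Pdcd1lg2 read 0.34, -0.03 and 0 against 1.85, 2.32 and 1.61 (1.82 ± 0.23). The other PD-1 ligand, Cd274 (1.99 ± 0.33), was lost without WT 2 (adjusted p = 0.0501), and Cd86 (0.93 ± 0.18) without mock 1, mock 2, mock 3, WT 1 or WT 2 (highest adjusted p = 0.0917), which left 3 of the 22 without WT 2. Il18rap, Ccl5 and Cd86 were not called after quantile normalization (adjusted p = 0.286, 0.186 and 0.07). Ccl5 and Cd86 were not called with a trend and robust prior (adjusted p = 0.138 and 0.0637). Ccl5 was not called with only the WT and mock arrays (adjusted p = 0.088).

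Targets and feedback inhibitors of STAT5, the factor downstream of IL-2, rose next in share to the Treg genes among the longer lists. Of 22 measured, 9 rose and 0 fell (median 0.89), and 13 rose and 2 fell with the block. Cish, whose promoter is printed above, read -0.06, 0.06 and 0 on mock arrays and 2.99, 3.26 and 2.77 on WT arrays (8.03-fold, adjusted p = 4.56e-05). Socs2, another feedback inhibitor, read -0.75, 0 and 0.85 against 3.29, 4.07 and 4.28 (3.85 ± 0.40, adjusted p = 0.000781). Within each group Socs2 was lowest on array 1 and highest on array 3. Socs3 read -0.29, 0.41 and 0 against 1.74, 2.55 and 1.85 (2.01 ± 0.24), and the kinase Pim1 read 0.07, -0.08 and 0 against 1.30, 1.35 and 1.21 (1.29 ± 0.09, adjusted p = 7.02e-05). Socs1 missed the threshold at 2.31 ± 0.61 (adjusted p = 0.0975), with -1.34, 0.43 and 0 against 1.08, 2.81 and 2.13, and passed with the block (adjusted p = 6.79e-06 with the block). Mcl1, a survival factor of the BCL-2 family, rose (0.97 ± 0.15). Granzyme B, Gzmb, read 0, 0.27 and -1.66 against 3.49, 3.21 and 1.81 (3.30 ± 0.66) and was lost without mock 1, mock 3, WT 1 or WT 2 (highest adjusted p = 0.118). The STAT form stood in 27.3% of the 22 promoter windows of this list (6 windows of 5 genes), against 7.21% of all windows. It was also frequent in lists described below, in 5 of 20 NF-kappaB windows, 5 of 23 antiviral windows and 3 of 8 GTPase windows. It stood in 3 of 22 windows of the Treg-higher genes and 2 of 21 of the ERK and G protein list. A high share was therefore not particular to the STAT5 list. Socs2 and Gzmb were not called after quantile normalization (adjusted p = 0.103 and 0.181). Gzmb was not called with only the WT and mock arrays (adjusted p = 0.0531).

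**Figure D2:**
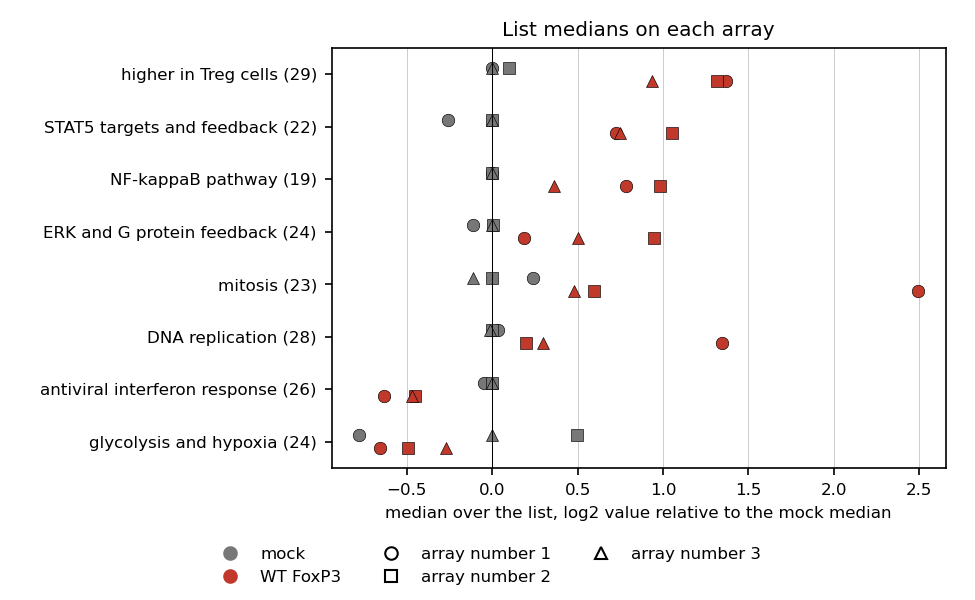
Medians of 8 gene lists on each mock (grey) and WT (red) array, as log2 values relative to the mock median on a linear axis, with the number of measured genes in brackets and the shape giving the array number. Treg-higher genes lie between 0.94 and 1.37 on the 3 WT arrays, whereas mitosis genes reach 2.49 on WT array 1 and 0.60 and 0.48 on WT arrays 2 and 3.

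Regulators and targets of ERK and G protein signalling, not all of which restrain these pathways, had 8 of 24 higher and 0 lower (median 0.64). With the block 13 were higher and 1 lower. Map3k8, a kinase upstream of ERK, read -0.31, 0 and 0.49 against 3.76, 3.73 and 3.02 (3.44 ± 0.38, adjusted p = 0.000971). Rgs1, which ends G protein signals, read -0.12, 0.43 and 0 against 3.15, 3.26 and 2.63 (2.91 ± 0.31, adjusted p = 0.000788). Spry1, an ERK inhibitor, read 0, 0.06 and -0.28 against 2.49, 2.90 and 1.65 (2.42 ± 0.33, adjusted p = 0.00362), with WT array 3 again the lowest of its group. Spred2 (1.28 ± 0.17) and the ETS factor Etv5 (1.03 ± 0.13) rose less. The phosphatases Dusp4 (1.38 ± 0.31) and Dusp16 (0.70 ± 0.14) were called, and lost without mock 1, mock 2, mock 3, WT 1 or WT 2 (highest adjusted p = 0.163) and without mock 1, WT 1 or WT 2 (highest adjusted p = 0.0988). Dusp4 and Dusp16 were not called after quantile normalization (adjusted p = 0.11 and 0.0949). Dusp4 and Dusp16 were not called with a trend and robust prior (adjusted p = 0.11 and 0.102). Dusp4 and Dusp16 were not called with only the WT and mock arrays (adjusted p = 0.129 and 0.0711). Dusp16 was not called as the mean of its probe sets (adjusted p = 0.0542).

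NF-kappaB genes had 4 of 19 called higher and 0 lower, and 10 higher and 0 lower with the block, but those 4 calls were weak, with 2 after quantile normalization and 0 with a trend and robust prior. Relb (1.71 ± 0.34), Bcl3 (2.42 ± 0.52), Nfkbia (1.21 ± 0.24) and Birc3 (1.11 ± 0.23) had adjusted p = 0.0265, 0.0369, 0.0256 and 0.034. None of the 19 was called without mock 1, mock 2, WT 1 or WT 2, and the highest adjusted p of these 4 was 0.116, 0.151, 0.104 and 0.137. Bcl3, a nuclear IkappaB protein, read 0.18, 0 and -0.21 on mock and 2.96, 2.89 and 1.38 on WT arrays, with WT array 3 well below the other WT arrays. Rel, a subunit of the factor, read 0, -0.34 and 0.73 against 1.51, 1.88 and 1.12 (1.37 ± 0.32, adjusted p = 0.0524, adjusted p = 0.0204 with the block). Early response genes had 2 of 21 higher and 0 lower, and 7 higher with the block. Cd69 (2.30 ± 0.41) was lost without mock 1, mock 2, WT 1 or WT 3 (highest adjusted p = 0.0669), and Nab2 (0.97 ± 0.19) without mock 1, mock 2, WT 1, WT 2 or WT 3 (highest adjusted p = 0.109). Nr4a1, a receptor-induced factor, was at -0.26 ± 0.86, with 1 mock array, array 2, at 2.91 and the others at 0 and -0.15. Components of T cell receptor signalling had 0 of 27 higher and 3 lower (median -0.27), 3 higher and 8 lower with the block, and 1 lower after quantile normalization or with a trend and robust prior. Their called members besides Ptpn22 were Plcg1 (-0.49 ± 0.10), lost without mock 1, mock 2, mock 3, WT 1 or WT 2 (highest adjusted p = 0.123), and Cd5 (-0.47 ± 0.10), lost without mock 1, mock 2, mock 3, WT 1 or WT 2 (highest adjusted p = 0.155). In the PI3 kinase pathway 0 of 18 rose and 3 fell, 1 rose and 7 fell with the block, and 1 fell after quantile normalization. Pik3ap1 read -0.06, 1.56 and 0 against -2.88, -2.94 and -3.16 (-3.49 ± 0.48), and Tbc1d4, which AKT phosphorylates, read 0.02, -0.58 and 0 against -3.70, -3.63 and -2.34 (-3.04 ± 0.35). Mock array 2 was the highest array for Pik3ap1 and the lowest mock array for Tbc1d4. Pik3cg (-1.20 ± 0.27) was lost without mock 1, mock 2, mock 3, WT 1 or WT 2 (highest adjusted p = 0.173). Nfkbia, Birc3, Cd69, Nab2, Plcg1, Cd5 and Pik3cg were not called after quantile normalization (adjusted p from 0.135 to 0.45). Relb, Bcl3, Nfkbia, Birc3, Nab2, Plcg1, Cd5 and Pik3cg were not called with a trend and robust prior (adjusted p from 0.0591 to 0.22). Nfkbia, Plcg1, Cd5 and Pik3cg were not called with only the WT and mock arrays (adjusted p from 0.0795 to 0.137). Nfkbia and Plcg1 were not called as the mean of their probe sets (adjusted p = 0.124 and 0.426). Pik3cg was not called with arrays centred on their own median (adjusted p = 0.0511).

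Gata1, best known from red cell and mast cell development, read 0, -0.23 and 0.17 against 2.41, 2.23 and 1.95 (2.22 ± 0.15, adjusted p = 8.01e-05). Bhlhe40 read -0.27, 0.44 and 0 against 2.65, 2.75 and 2.19 (2.47 ± 0.38), and Maff, a small MAF factor, read -0.54, 0 and 0.26 against 1.72, 3.13 and 1.88 (2.34 ± 0.38), with WT array 2 the highest. The Ikaros-family factor Ikzf3, Aiolos, rose as well (1.43 ± 0.20), as did Xbp1, the factor of secretory and stress programs (1.84 ± 0.19), and the inhibitors of DNA binding Id1 (2.37 ± 0.27) and Id3 (2.24 ± 0.22). Gfi1, a repressor, fell, at 0.34, 0 and -0.18 against -1.23, -1.83 and -1.49 (-1.57 ± 0.20, adjusted p = 0.00201). Irf4, a factor of effector Treg cells, read 0.03, 0 and -0.03 against 2.98, 1.93 and 1.81 (2.24 ± 0.41, adjusted p = 0.017) and was lost without mock 1, mock 2, mock 3 or WT 1 (highest adjusted p = 0.0671). Batf, which binds DNA beside it, was at 0.57 ± 0.32 (adjusted p = 0.604, adjusted p = 0.018 with the block), with array 1 the lowest in mock and in WT cells (-0.87, 0.04 and 0 against -0.14, 0.55 and 0.47). Of 24 BATF, IRF and MAF factors 5 rose and 1 fell, 8 rose and 2 fell with the block, and 3 rose without mock 1. Of 31 partner and T cell factors 3 rose and 0 fell, and 6 rose and 3 fell with the block. In the TGF-beta and SMAD list 4 of 25 rose and 1 fell, and 7 rose and 3 fell with the block, among them Skil, a SMAD repressor (1.46 ± 0.16).

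Effector and adhesion genes also moved. Gzmc, a granzyme, read -0.06, 0.28 and 0 against 4.75, 4.89 and 4.45 (24.7-fold, adjusted p = 1.19e-05), and the granzyme inhibitors Serpinb9 and Serpinb6b rose by 1.20 ± 0.17 and 1.50 ± 0.20. Probes of one granzyme gene may also read another, since the family is closely related. Of 19 granule genes 4 rose and 0 fell, and 2 rose after quantile normalization. Of 29 integrin and adhesion genes 4 rose and 3 fell, and 5 rose and 5 fell with the block, among them the proteoglycan Sdc4 (2.90 ± 0.36), the integrin chain Itgal (-0.67 ± 0.11) and Emb (-1.58 ± 0.20). The rises numbered 2 without mock 2, mock 3, WT 1 or WT 2 and with a trend and robust prior, and the falls 1 after quantile normalization. The Fc receptor Fcgr3 read 0, 0.26 and -0.33 against -1.90, -1.47 and -1.94 (-1.75 ± 0.21). Of 22 NK and Fc receptors 0 rose and 2 fell, and 0 rose and 4 fell with the block. Serpinb9 and Itgal were not called after quantile normalization (adjusted p = 0.171 and 0.0692). Itgal and Fcgr3 were not called with a trend and robust prior (adjusted p = 0.0549 and 0.0605). Itgal was not called with only the WT and mock arrays (adjusted p = 0.0501).

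The antiviral and GTPase lists of interferon-linked genes were mostly called in opposite directions, but neither list holds its whole family. Ifitm1, Ifitm2 and Ifitm3 stand outside the antiviral list and Gbp2b outside the GTPase list. All of them were called higher and are given below. Of 26 antiviral genes 0 rose and 7 fell (median -0.43), 0 rose and 12 fell with the block, and 4 fell with a trend and robust prior. Ifit1, an RNA-binding antiviral protein, read -0.76, 0 and 0.03 on mock arrays 1 to 3 and -2.43, -2.57 and -1.93 on WT arrays 1 to 3 (-2.07 ± 0.28, adjusted p = 0.0033). Rtp4 read -0.02, 0 and 0.26 against -1.79, -2.65 and -2.15 (-2.28 ± 0.21), and Irf7, the factor that amplifies interferon responses, read 0.00, 0.26 and 0 against -1.74, -1.40 and -1.82 (-1.74 ± 0.14, adjusted p = 0.000156). Oas3, Ifit2 and Oas2 fell too (-1.86 ± 0.24, -1.05 ± 0.14 and -0.97 ± 0.15), and Xaf1 (-0.78 ± 0.13) was lost without WT 2 (adjusted p = 0.0502). Mx1, a standard marker of interferon exposure, was at -0.08 ± 0.11 and Usp18 at -0.16 ± 0.42, neither called. Guanylate-binding and related GTPases had 4 of 9 higher and 0 lower, and 4 higher and 1 lower with the block. Gbp3 read 0.28, -0.44 and 0 against 3.14, 2.83 and 2.88 (8.03-fold, adjusted p = 0.000137), and Gbp7 read 0, 0.24 and -0.32 against 1.66, 1.80 and 1.19 (1.57 ± 0.17). Gbp2 (1.46 ± 0.25) was lost without mock 3 and WT 2 (highest adjusted p = 0.0571) and Iigp1 (1.89 ± 0.36) without mock 1, mock 2, mock 3, WT 1 or WT 2 (highest adjusted p = 0.0941), which left 2 of the 9 called. The related GTPases are similar in sequence, so probes of one may read another. The ISRE stood in 52.2% of 23 windows of the antiviral list and in 75.0% of 8 windows of the GTPases, against 3.03% of all windows. In the antiviral genes called lower it stood in 2 of 6 windows (33.3%), and in Gbp3 in 1 of its windows and not in the other. Iigp1 was not called after quantile normalization (adjusted p = 0.241). Ifit1, Oas2, Xaf1 and Iigp1 were not called with a trend and robust prior (adjusted p from 0.0528 to 0.0896).

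Of 20 lipid mediator genes 3 rose and 2 fell, and 3 rose and 4 fell with the block. Alox5ap, the activator of leukotriene synthesis, read 0.22, -0.08 and 0 against -2.83, -2.61 and -1.65 (-2.41 ± 0.27), opposite in direction to Cyp4f18 above. Ptger4, a prostaglandin E2 receptor, rose (1.54 ± 0.24), and Mgll, a lipase chosen after its values were seen, fell (-1.85 ± 0.27). Cyp11a1, the enzyme that starts steroid synthesis, read 0.12, 0 and -0.53 against 2.44, 2.13 and 2.21 (2.40 ± 0.25, adjusted p = 0.000788). Scd1, a fatty acid desaturase, read 0.05, -0.27 and 0 against -2.25, -2.33 and -2.24 (-2.20 ± 0.11, adjusted p = 1.34e-05), whereas the elongase Elovl6 read 0.31, 0 and 0.00 against 4.22, 3.77 and 3.66. Odc1, which starts polyamine synthesis (2.49 ± 0.30), and the transferrin receptor Tfrc (2.09 ± 0.29) rose. Of 24 amino acid genes 3 rose and 0 fell, and 5 rose and 1 fell with the block, and of 22 cholesterol and fatty acid genes 0 rose and 1 fell, and 0 rose and 5 fell with the block. Epas1, the hypoxia-inducible factor HIF-2alpha, fell, at 0.13, 0 and -0.04 against -2.43, -2.44 and -1.76 (-2.24 ± 0.21). It was the 1 gene called of 24 in the glycolysis and hypoxia list, where 2 rose and 6 fell with the block. That list differed within the mock group, with medians of -0.78, 0.49 and 0 on mock arrays 1 to 3 and -0.66, -0.49 and -0.27 on WT arrays 1 to 3. The groups therefore overlap in it. Mgll was not called with a trend and robust prior (adjusted p = 0.0858).

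Mitosis genes and Treg-higher genes had the highest medians of the 52 lists, both 1.16. Of the 23 mitosis genes 0 were called (limma), and 13 were called higher with the block. Their medians were 2.49 on WT array 1, 0.60 on WT array 2 and 0.48 on WT array 3, against 0.24, 0 and -0.11 on mock arrays 1 to 3. Every WT array was above every mock array, and WT array 1 stood apart from the others. Ccnb2, a mitotic cyclin, read 0.76, 0 and -0.40 against 3.99, 1.72 and 1.95 (2.44 ± 0.77, adjusted p = 0.182, adjusted p = 0.000141 with the block), and Ube2c, which helps end mitosis, read 0.19, 0 and -0.84 against 3.82, 1.80 and 1.28 (2.51 ± 0.66, adjusted p = 0.0924, adjusted p = 0.000294 with the block). DNA replication genes had 1 of 28 called higher, 8 higher with the block, and medians of 1.34, 0.20 and 0.30 on the WT arrays. Their called gene, the helicase subunit Mcm5 (1.95 ± 0.42), was lost without mock 1, mock 2, mock 3, WT 1 or WT 2 (highest adjusted p = 0.131). Without the arrays numbered 1, 2 mitosis genes were called. The part of the array number in these results was not tested beyond the block. Cell cycle inhibitors and regulators had 3 of 22 higher and 0 lower, 6 higher and 2 lower with the block, and 1 higher after quantile normalization, among them Gadd45g, a stress-induced inhibitor (2.34 ± 0.36), and Cdkn1c, a CDK inhibitor (0.70 ± 0.09). Mcm5 and Gadd45g were not called after quantile normalization (adjusted p = 0.213 and 0.0548). Mcm5 was not called with a trend and robust prior (adjusted p = 0.0797). Mcm5 was not called with only the WT and mock arrays (adjusted p = 0.0531).

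**Figure D3:**
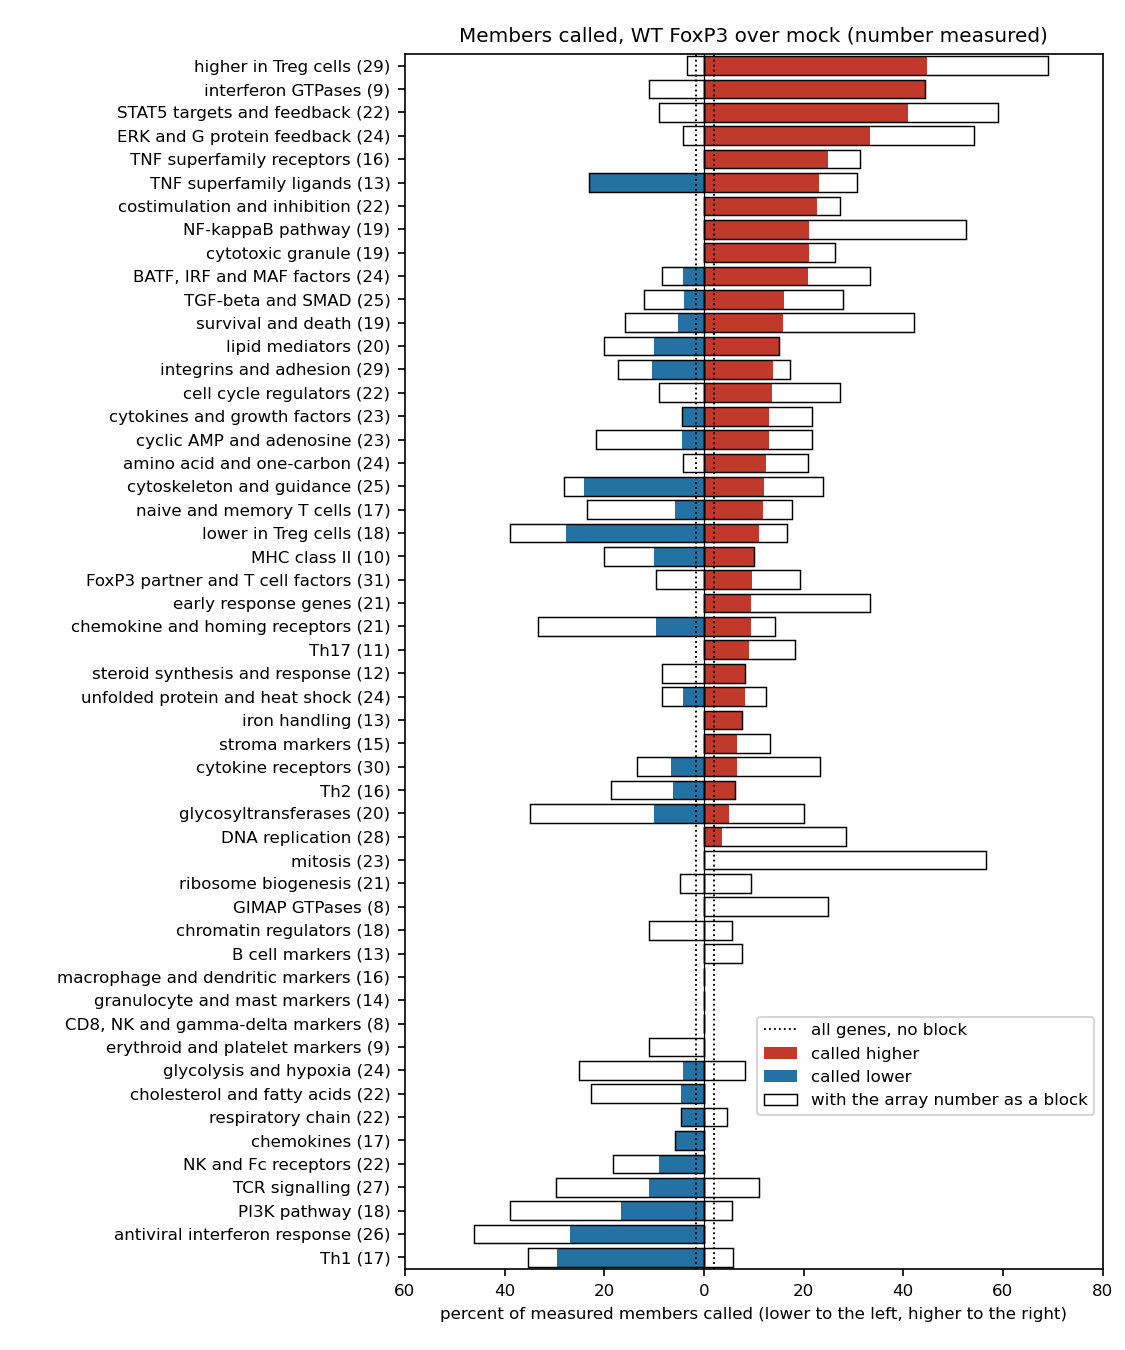
Share of measured members called higher (to the right, red) or lower (to the left, blue) with WT FoxP3 in each gene list, in percent, with the number of measured genes in brackets; outlines show the same with the array number as a block, and dotted lines the shares over all genes, 1.94% and 1.59%. Treg-higher genes have the highest share called higher (13 of 29) and type 1 helper genes the highest share called lower (5 of 17).

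Most listed markers of other cell types, which feeder spleen cells or sorting could carry over, changed little. The lists do not hold every gene of such cells. Klrd1, Fcgr3 and Gata1, called above, stand outside the lists counted next. None of 13 B cell, 16 macrophage and dendritic cell, 14 granulocyte and mast cell, 8 CD8, NK and gamma-delta T cell, and 9 erythroid and platelet markers was called without the block, and with it 1 B cell marker rose and 1 erythroid or platelet marker fell. Median differences of these lists lay between -0.18 and 0.05. Because levels are lost, it cannot be said which of these markers were at background. Of 10 class II genes 1 rose and 1 fell, and 1 rose and 2 fell with the block, H2-Oa with -0.44, 0 and 0.02 against -1.29, -1.08 and -1.08 (-1.01 ± 0.14) and H2-DMb2 (0.95 ± 0.20), the latter lost without mock 1, mock 2, mock 3, WT 1 or WT 2 (highest adjusted p = 0.136). Of 15 stromal markers 1 rose, and 2 with the block, the called one being the collagen Col1a2 (2.33 ± 0.51), lost without mock 1, mock 2, mock 3, WT 1 or WT 2 (highest adjusted p = 0.141). GIMAP GTPases (8) and ribosome biogenesis genes (21) had 0 called in limma's fit, and 2 rises, and 2 rises and 1 fall, with the block. H2-DMb2 was not called after quantile normalization (adjusted p = 0.113). H2-Oa, H2-DMb2 and Col1a2 were not called with a trend and robust prior (adjusted p = 0.105, 0.0974 and 0.0686). H2-DMb2 was not called with only the WT and mock arrays (adjusted p = 0.0666).

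Called genes that lie next to each other in the genome often moved the same way. Of 18145 measured genes with a place in RefSeq's order, 56 runs of 2 or more adjacent called genes were found, holding 123 genes, and 50 of the runs moved in 1 direction. How many runs the same number of called genes would give elsewhere was not computed, and adjacent family members can share probes. Gpr83 and Izumo1r are adjacent, as are Tnfrsf4 and Tnfrsf18, Pdcd1lg2 and Cd274, Osm and Lif, and Tnf, Lta and Ltb. The 4 adjacent genes Gbp7, Gbp3, Gbp2b and Gbp2 all rose, with Gbp2b at 0.25, -0.01 and 0 in mock and 3.75, 3.88 and 3.24 in WT cells (3.54 ± 0.22). Chosen after their values were seen, the adjacent antiviral genes Ifitm3 (2.26 ± 0.25), Ifitm2 (1.79 ± 0.31) and Ifitm1 (1.33 ± 0.29) rose, unlike the antiviral list above. Gbp2, Cd274 and Ltb lost their calls without the arrays named earlier. Ifitm2 was lost without mock 1 (adjusted p = 0.0548), and Ifitm1 without mock 2, mock 3, WT 1, WT 2 or WT 3 (highest adjusted p = 0.142). Il1rl2, beside the IL-18 receptor genes, fell with them (-0.90 ± 0.17) but was lost without mock 1, mock 2 or WT 1 (highest adjusted p = 0.0784), and Lif (1.12 ± 0.24) without mock 1, mock 2, mock 3, WT 1 or WT 2 (highest adjusted p = 0.147). Sema7a, beside Cyp11a1, was called higher (2.48 ± 0.44) and lost without mock 2, mock 3, WT 1 or WT 2 (highest adjusted p = 0.0663). Direction was mixed at Ikzf3, which rose, beside Grb7, an adaptor that fell (-1.71 ± 0.15). Ifitm2, Ifitm1 and Il1rl2 were not called after quantile normalization (adjusted p = 0.0959, 0.211 and 0.272). Ifitm1, Il1rl2 and Lif were not called with a trend and robust prior (adjusted p = 0.091, 0.127 and 0.122). Ifitm1 and Il1rl2 were not called with only the WT and mock arrays (adjusted p = 0.0635 and 0.0627). Lif was not called as the mean of its probe sets (adjusted p = 0.146).

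**Figure D4:**
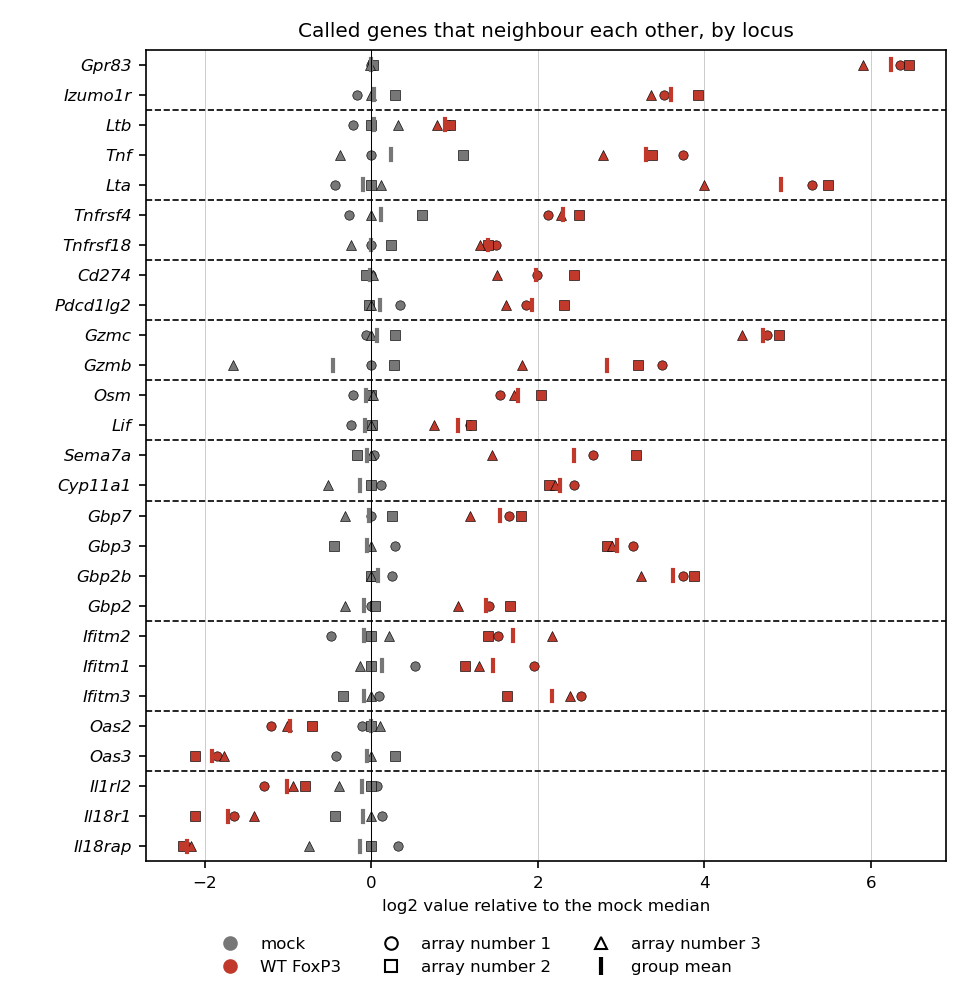
Called genes that neighbour each other, grouped by locus between dashed lines. Each point is 1 array as a log2 value relative to the mock median on a linear axis, grey for mock and red for WT, with shapes for the array number and bars for group means; Gbp2b WT arrays lie between 3.24 and 3.88, and the 3 genes of the IL-18 receptor locus lie below their mock arrays.

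Among called genes with the smallest standard errors was Syne2, a nuclear envelope protein that read 0.09, -0.04 and 0 against -1.21, -1.29 and -1.28 (-1.27 ± 0.08, adjusted p = 4.67e-05), as was Prxl2a (-1.12 ± 0.09). Probe sets without a listed gene also changed, 71 higher and 54 lower of 9160. The largest were 1446426_at (4.31 ± 0.41), 1435605_at (3.66 ± 0.29), 1459354_at (-2.56 ± 0.31) and 1446412_at (-2.35 ± 0.24). Prxl2a was not called with a trend and robust prior (adjusted p = 0.0525).

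WT FoxP3 was also set beside the mutant forms. The differences in these contrasts do not involve the mock arrays, but their SEs and p-values come from the fit of all 11 arrays. WT differed from A384T FoxP3 in 30 of 18193 genes (0.165%; 0.753% with the block) and from R397W FoxP3 in 441 (2.42%; 7.81% with the block). None of the 18 genes that were always described was called between WT and A384T without the block. Of the other genes named above, 5 were. Nt5e was 0.85, 1.16 and 0.85 on A384T arrays 1 to 3, with WT 2.58 ± 0.25 above them (adjusted p = 0.00737), and Cyp11a1 was 1.11, 0.29 and 0.07, with WT 1.77 ± 0.25 above (adjusted p = 0.0403). Tbc1d4 was -1.15, -0.46 and -0.46, with WT at -2.54 ± 0.35 relative to A384T (adjusted p = 0.0363), Rtp4 was -0.65, -0.77 and -0.73 (-1.48 ± 0.21, adjusted p = 0.037), and Irf7 was -0.66, -0.84 and -0.59 (-0.96 ± 0.14, adjusted p = 0.0436). In these 5 genes every A384T array lay between the mock mean and the WT mean. Gpr83 was 6.31, 5.45 and 5.65 on A384T arrays 1 to 3, a WT minus A384T difference of 0.44 ± 0.22 (adjusted p = 1), and -0.20 and 0.13 on R397W arrays 1 and 2, a WT minus R397W difference of 6.28 ± 0.24 (adjusted p = 6.4e-06). The R397W arrays thus lay near the mock arrays for this gene and the A384T arrays near the WT arrays. Pde3b fell less in A384T cells, at -0.93, -0.44 and -0.30, so that WT lay at -1.07 ± 0.17 relative to A384T (adjusted p = 0.0756, adjusted p = 0.00539 with the block). Batf was at -1.01, -0.65 and -0.49 on the A384T arrays, with WT 1.01 ± 0.32 above them (adjusted p = 0.8, adjusted p = 0.00539 with the block). Against R397W, 11 of the 18 were called, among them Izumo1r (3.64 ± 0.18), Il2ra (2.00 ± 0.16), Ctla4 (1.45 ± 0.22), Tnfrsf4 (2.01 ± 0.25), Il4 (-1.92 ± 0.22) and Ptpn22 (-1.41 ± 0.14), and 14 with the block. These contrasts share the WT arrays with each other and with the comparison against mock.

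**Figure D5:**
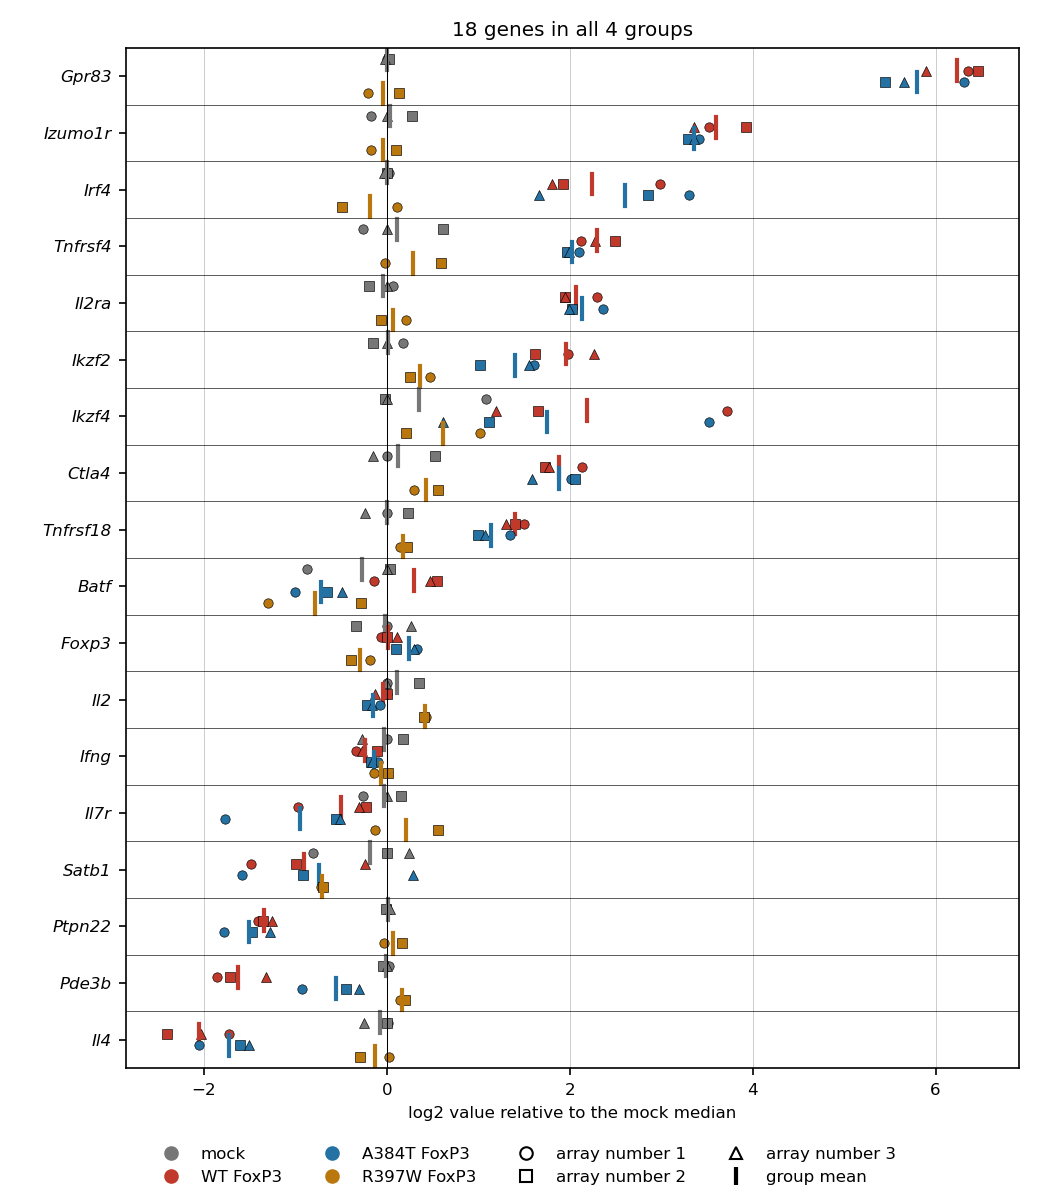
Values of 18 genes on all 11 arrays, as log2 values relative to the mock median on a linear axis, with mock in grey, WT in red, A384T in blue and R397W in ochre, shapes for array numbers and bars for group means. For Gpr83 the WT arrays lie between 5.90 and 6.46, the A384T arrays between 5.45 and 6.30 and the R397W arrays between -0.20 and 0.13.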

How the data were processed

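RNA of the sorted cells was hybridised to Affymetrix arrays, 1 array per sample. The authors deposited log2 values, for which the submitters' processing notes name RMA without a version. Each of 45101 probe sets had a mock median of exactly 0. No source used here states this centring or the log base; centring removes levels and keeps differences. After 64 control probe sets were left out, 45037 were fitted with limma 3.58.1 (R 4.3.3), 1 mean per group over all 11 arrays (7 residual degrees of freedom), and the contrast of WT minus mock was tested with eBayes. Symbols came from the platform annotation: 34958 probe sets had 1 symbol, 932 several and 9211 none, which gave 18193 genes. Choosing each gene's most variable probe set favours larger changes where a gene has several; of 385 such called genes, 78 had another probe set of opposite sign and 0 had one called the opposite way.

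Deviations from group means of mock and WT arrays correlated at 0.68, 0.49 and 0.56 for same-numbered arrays and between -0.44 and -0.018 otherwise. Deviations within a group sum to 0, so positive same-numbered correlations push the others down. Every same-numbered pair of groups correlated at 0.11 or more. Array numbers were treated as pairing the samples in the fit with the block only. The main fit, with its SEs and calls, leaves them out. Some differently numbered arrays of other pairs of groups also correlated, at up to 0.34 (WT 3 with R397W 2). The 2 R397W arrays give correlations that are exact negatives of each other. Mock 2 correlated at 0.11 with A384T 2 and at 0.20 with A384T 3, so the pairing is less clear for numbers 2 and 3. At most 2.94% of probe sets had equal values on 2 arrays.

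The genes and 52 lists (892 measured genes) were chosen with earlier results of these data known. The text draws on a naming rule: 18 measured genes always, the 15 largest called rises and falls, up to 6 called genes per list, probe sets without a gene, the smallest SEs and the largest differences not called. The T cell chains, Rel, Nr4a1, Tbx21, Mx1, Usp18, Xaf1, Pim1, Dusp16, Etv5, Ecm1, Swap70, Itgal, Il1rl2, Grb7, Mgll and the Ifitm genes lie outside it and were chosen after their values were seen. The fit was also run on simulated data in which probe sets were drawn independently. The outcome is not given here, and no call rests on it. Promoter windows of chromosome 18 were not used here. Python 3.11.15, pandas 2.3.3 and matplotlib 3.10.9 made tables and figures. Alternatives covered the block, the groups fitted, the prior, scaling, probe set choice, a 2-fold minimum and leaving out arrays.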

Additional observations from a re-analysis of the deposited data

How the results depend on the processing

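The replicate block treats arrays of the same number as paired, which the titles do not state. With it 3438 probe sets, 1824 genes and 294 of the distinct list genes were called in WT over mock. Without it the counts were 1198, 643 and 136. In WT over A384T the block called 2 always described genes, Batf and Pde3b, against 0 without it. The block ended none of the 643 gene calls. With the block and only the WT and mock arrays the counts were 3876, 2038 and 311, and with those arrays and no block 841, 485 and 119. A trend and robust prior gave 446, 261 and 87, with 68.2% of the called genes higher against 54.9%, and quantile normalization gave 478, 279 and 87. A 2-fold minimum left 628 probe sets and 382 genes. Leaving out 1 array gave 684 to 905 probe sets, 380 to 498 genes and 89 to 120 list genes, and leaving out the arrays numbered 1 gave 535, 318 and 86. Fewer arrays or a stricter rule are part of the construction of those settings. Quantile normalization gave 1 spread to mock arrays, with standard deviations of 0.18 to 0.27, and to WT arrays, with 0.36 to 0.44. The trend was fitted on centred values, which hold no signal level. How many calls were lost for these reasons was not tested. The naming rule chose 177 genes, of which 142 were called, 93 of them in all 6 fits without 1 array and 63 in all settings, and 0 called values changed sign in the settings run. Groups of 3 arrays are too small for a test of single outlying arrays, and centred values give no signal over background.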
